A study of Mus musculus with 5 samples.

Results

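The RNA of 4 mouse pituitary lines was set against that of NIH3T3, an embryonic fibroblast line from Swiss mice. αT1–1, αT3–1 and LβT2 belong to the gonadotrope lineage, and their labels call them immature, intermediate and mature. TαT1 is a thyrotrope line. According to the labels, all 4 come from tumors of CB6F1/J mice that carried a transgene for the T antigen of SV40, a viral protein that binds RB and p53, and the promoter that drove it is not stated there. All lines grew untreated in DMEM with serum. Each is 1 established line with 1 column of RPKM (reads scaled to the length of the gene and the depth of the library), so there is no spread between replicates and no test. The 4 lines are not replicates of each other and share the single NIH3T3 column. Strain, T antigen and cell type change together between NIH3T3 and the others and cannot be told apart. Of 21437 genes, the 13401 at 1 RPKM or more in any of the 5 lines were compared. For each gene the difference of log2(RPKM + 1), pituitary line minus NIH3T3, was taken in the 4 lines, and the smallest and the largest of the 4 are given.

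Depth and labels were examined first. The RPKM steps give 14246219 reads behind the NIH3T3 column and 18661308 to 20687488 behind the others. Over all genes the RPKM summed to 493158 in NIH3T3 and to 313491 (αT3–1) to 448296 (LβT2) in the others. Intervals in brackets are exact Poisson intervals at the 95% level and cover counting error only. The 12 markers set for pituitary endocrine cells summed to 0.611 RPKM in NIH3T3, whereas the pituitary lines lay between 1199 and 14118. Among them Fshb, for the FSH-specific subunit, was at 0 in every line. The 10 fibroblast markers summed to 11385 RPKM in NIH3T3 and to between 4.74 and 227 in the others. The highest of these sums, in TαT1, was mostly Thy1, a surface glycoprotein of neurons and fibroblasts, at 191 RPKM. NIH3T3 itself was low in some markers of fibroblasts in tissue. Thy1 stood at 0.0405 RPKM there, the matrix proteoglycan genes Dcn and Lum at 0.135 and 0, and Col3a1 at 2.59, against at most 0.0193 in the pituitary lines. Of the leukocyte markers, Ptprc was at 0 in all 5 lines and Csf1r reached at most 0.217 RPKM, in NIH3T3. The macrophage genes Lyz2 and Cd68 were at 3.72 and 1.67 RPKM in NIH3T3, against at most 0.201 and 1.53 in the pituitary lines, and Cd14 was at 23.5 against at most 0.429. Of the endothelial markers, Kdr stood at 0 in NIH3T3 and LβT2 and at 15.3 to 65 RPKM in the other 3 lines, while Cdh5 reached 50.6 in LβT2. Their part in the results was not tested, and in such cultures fewer cells of a type and less RNA per cell cannot be told apart.

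Gonadotropes and thyrotropes are secretory cells of the anterior pituitary. They make glycoprotein hormones from a common α subunit, store them in dense-core granules and release them by calcium-triggered exocytosis, with much the same machinery as neurons. Fibroblasts build the extracellular matrix. They secrete collagens without storing them, bind the matrix through integrins and pull on it with actin stress fibers.

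By size alone, 608 genes were higher by 4-fold or more (a difference of 2) in all 4 pituitary lines, which is 4.54% of those compared. In the other direction 498 genes were lower by 4-fold or more in all 4, or 3.72%. With quantile normalization of the 5 columns the counts were 482 higher and 595 lower, and with a pseudocount of 5 RPKM they were 186 and 295, so which direction holds more genes depends on these settings. With a pseudocount of 0.1 RPKM they were 1306 and 690. At 2-fold (a difference of 1) the counts were 1412 higher, or 10.5%, and 1156 lower, or 8.63%, and these are the background for the gene lists that follow. A further 3002 genes, 22.4%, stayed within 2-fold of NIH3T3 in all 4 lines. The median gene had a smallest difference of −0.16, a largest of 1.08 and a spread between them of 1.30. Over all genes compared, the median difference was 0.31 in αT3–1, 0.28 in LβT2, 0.24 in TαT1 and 0.23 in αT1–1. Median-of-ratios scaling brought it to 0.11 to 0.29, and quantile normalization to 0.00 or −0.01.

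Most of the higher genes were near silent in the fibroblasts. Of all genes compared, 1781 (13.3%) were at 0 in NIH3T3 and 3799 (28.3%) under 1 RPKM there. Such genes were compared because a pituitary line reached 1 RPKM, so they could not be lower by 2-fold. Of the 608, 270 were listed at 0 in NIH3T3 and 526 were under 1 RPKM there, and 307 were at 10 RPKM or more in every pituitary line. Together they held 0.0928% of the summed RPKM of NIH3T3 and 8.26% (αT3–1) to 10% (αT1–1) in the pituitary lines. The lower genes held 19.6% of the sum in NIH3T3 and 1.61% (LβT2) to 1.81% (αT3–1) in the others. Of these 498, 278 were under 1 RPKM in all 4 pituitary lines and 46 were at 0 in all 4. Such genes entered through NIH3T3 and could not be higher. Their share over all genes compared was not counted, so these counts, and the like counts in the lists below, have no background. LβT2 was the line that most often stood alone in missing the 4-fold size. It was the only line short of it for 230 genes otherwise higher in 3 lines, against 71 to 79 for each of the others, and for 131 genes otherwise lower, against 29 to 50.

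**Figure D1:**
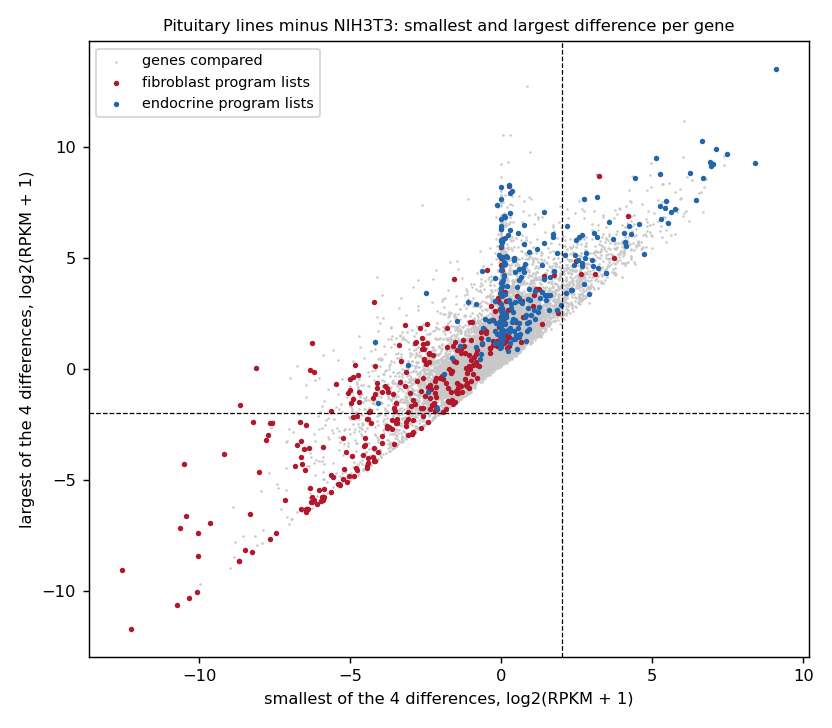
Each point is 1 of 13401 genes, with the smallest of its 4 differences from NIH3T3 on the x axis and the largest on the y axis, both of log2(RPKM + 1). Genes right of the vertical dashed line are the 608 that were higher by 4-fold or more in all 4 pituitary lines, and genes under the horizontal dashed line are the 498 that were lower. Blue points are members of the 13 endocrine lists and red points members of the 13 fibroblast lists.

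The endocrine program was described with 13 gene lists, 233 genes compared in all. Of these 80 were higher by 2-fold or more in all 4 pituitary lines (34.3%) and 3 were lower. The fibroblast program, also 13 lists, had 326 genes compared, of which 155 were lower by 2-fold or more in all 4 (47.5%) and 14 were higher. Over the 4 lines, the median difference of the endocrine genes lay between 1.70 and 2.29, and that of the fibroblast genes between −1.78 and −1.63. These lists were drawn up to describe the 2 programs with earlier results known, so their direction is no independent evidence. High shares of lower genes were not confined to the fibroblast lists. Of the ribosomal protein genes and reference genes described at the end, 64.3% and 33.3% were lower by 2-fold in all 4. Of the 233 endocrine genes, 186 were under 1 RPKM in NIH3T3. They entered through a pituitary line and could not be lower by 2-fold. Of the 326 fibroblast genes, 82 were under 1 RPKM in all 4 pituitary lines. They entered through NIH3T3 and could not be higher. The lists still hold a small part of the difference. Of the 608 genes higher by 4-fold, 56 were in an endocrine list and 6 in a fibroblast list. Of the 498 lower genes, 110 were in a fibroblast list and 0 in an endocrine list.

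**Figure D2:**
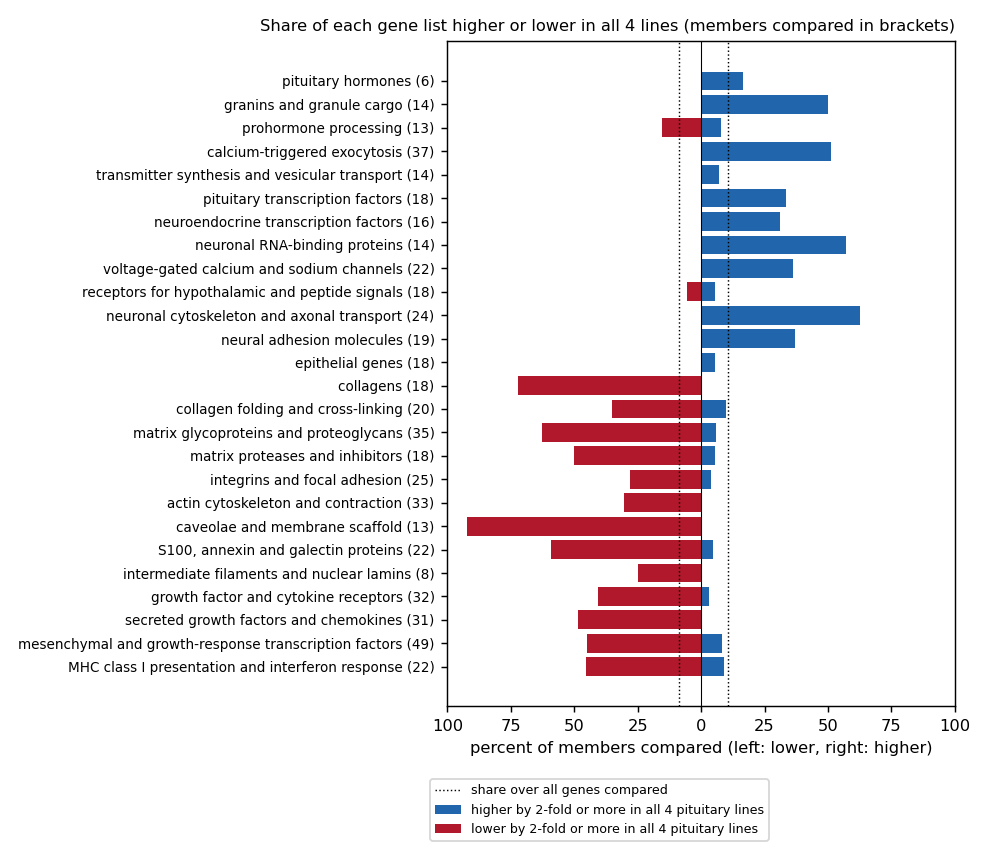
Bars give, for each list, the percent of the members compared that were higher (right, blue) or lower (left, red) by 2-fold or more in all 4 pituitary lines, with the number of members in brackets. Dotted lines mark the shares over all genes compared, 10.5% and 8.63%. The neuronal cytoskeleton list reached 62.5% higher and the caveolae and membrane scaffold list 92.3% lower. The processing, transmitter, receptor and epithelial lists were below the background on the higher side.

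Most hormone genes were high in a single pituitary line. Of 6 hormone genes compared, 1 was higher by 2-fold in all 4 lines. This was Cga, whose product pairs with each β subunit, with 9081 RPKM in αT1–1, 8802 in TαT1, 603.5 in αT3–1 and 12968 in LβT2, against 0.102 in NIH3T3. The NIH3T3 value is 1 read. Every pituitary line stood far above it, and αT3–1 was the lowest, at 603.5 RPKM (591 to 616). The smallest difference, 9.10, was also the largest smallest difference of all genes. Lhb, the β subunit of LH, was at 23.3 RPKM in LβT2 and at most 0.414 elsewhere. Tshb, that of TSH, reached 58.5 RPKM in TαT1 and at most 0.383 elsewhere. TαT1 also held Prl, the prolactin gene, at 108 RPKM, against 0 to 0.0601 in the other 4 lines.

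Most cargo genes of dense-core granules, 11 of 14, were under 1 RPKM in NIH3T3, against 28.3% of all genes, and these too entered through the pituitary lines. Granins are acidic proteins that condense in the granule, and 7 of 14 cargo genes compared were higher by 2-fold in all 4 lines, all 7 by 4-fold too. Chromogranin A, Chga, was listed with 1280 RPKM in LβT2, 102 in αT3–1, 488 in αT1–1 and 403 in TαT1, with 0.0373 in NIH3T3. Chgb, chromogranin B, had 656 RPKM in αT1–1, 527 in TαT1, 126 in αT3–1 and 118 in LβT2, against 0 in NIH3T3. The order of the pituitary lines differs between Chga and Chgb, with LβT2 highest for Chga and lowest for Chgb. Against the 3 reads that a count of 0 allows in NIH3T3, Chgb was at least 1537-fold higher in its lowest pituitary line. Scg2, secretogranin II, stood at 0 RPKM in NIH3T3 against 123 (αT1–1) to 569 (LβT2) in the 4 others. Pcsk1n, which encodes the proSAAS peptide that inhibits a prohormone convertase, was at 177 (αT3–1) to 826 (αT1–1) RPKM in the pituitary lines against 0 in NIH3T3, at least 1733-fold higher. Scg5, the chaperone of the convertase PC2, ranged from 83.2 RPKM in αT1–1 to 506 in TαT1, against 0.114 in NIH3T3. Ptprn2, a granule membrane protein, had 0 RPKM in the fibroblasts and 16.3 (αT3–1) to 45.55 (αT1–1) in pituitary cells. Resp18 differed between the pituitary lines. It was at 76 to 247 RPKM in 3 of them and at 0.226 in LβT2, with 0 in NIH3T3.

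Prohormone processing did not separate the 2 cell types in the same way. Only Pcsk6, a convertase of the constitutive pathway, was higher by 2-fold in all 4 lines among 13 genes, and 2 were lower. Without LβT2, 5 of the 13 were higher in the other 3 lines, and without αT3–1 3 were. The granule convertases Pcsk1 and Pcsk2 were at 0 and 0.0148 RPKM in NIH3T3. Pcsk2 had 0.0148 RPKM in NIH3T3 against 0.0791 (LβT2) to 119 (αT1–1) in the 4 others, so LβT2 lay under 1 RPKM like the fibroblasts while αT1–1 and TαT1 were over 100. Pcsk1 showed the same split, with 11.2 to 31.7 RPKM in 3 lines and 0.128 in LβT2. Cpe, the carboxypeptidase that trims cleaved hormones, was already at 55.3 RPKM in NIH3T3, against 72.5 (LβT2) to 338 (TαT1) in the pituitary lines. Pam, which amidates peptides, went both ways, with 0.01305 RPKM in LβT2, 8.2 in αT3–1, 41.3 in αT1–1 and 13.85 in TαT1, with 17.2 in NIH3T3. Ctsl, a lysosomal protease that also cleaves prohormones, was lower in all 4 lines, at 29.6 (LβT2) to 179 (TαT1) RPKM in the pituitary lines against 519 in NIH3T3. Pcsk4 was the other gene lower in all 4, at 9.03 RPKM in the fibroblasts and 0.865 (αT1–1) to 3.96 (αT3–1) in pituitary cells.

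Of 37 genes of regulated exocytosis compared, 19 were higher by 2-fold in all 4 lines, 12 by 4-fold, and 0 were lower. Of the 37, 26 were under 1 RPKM in NIH3T3, against 28.3% of all genes. These entered through a pituitary line and could not be lower by 2-fold. Syt8, a synaptotagmin outside this list, was at 56.7 RPKM in NIH3T3 and 0 in all 4 pituitary lines. Syp, synaptophysin of small secretory vesicles, gave 463 RPKM in αT1–1, 180.3 in TαT1, 865 in αT3–1 and 226 in LβT2, against 0.424 in NIH3T3. The lowest pituitary line was 425-fold above NIH3T3. Snap25, the plasma membrane SNARE, had 8.07 RPKM in LβT2, 37.7 in αT3–1, 42.1 in αT1–1 and 61.8 in TαT1, with 0 in NIH3T3, and LβT2 was the lowest of the 4. Syt4, a synaptotagmin, was at 0 RPKM in NIH3T3 against 16.2 (αT1–1) to 51.7 (αT3–1) in the 4 others. The small GTPase Rab3a, which sits on secretory vesicles, was at 39.3 (LβT2) to 151 (TαT1) RPKM in the pituitary lines against 3.99 in NIH3T3. Its effector Rph3al divided the pituitary lines, with 181 and 215 RPKM in αT3–1 and LβT2 and 7.96 and 10.5 in αT1–1 and TαT1. General members of the fusion machinery were expressed in the fibroblasts too. Napa, an adaptor for SNARE recycling, stood at 94.9 RPKM in NIH3T3, against 59.2 to 152.5 in the pituitary lines. The ATPase Nsf, which takes SNAREs apart, had 24.4 RPKM in NIH3T3 and 46.6 to 87 in the others.

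Channels and receptors gave smaller or line-bound differences. Of 22 voltage-gated calcium and sodium channel genes, 8 were higher by 2-fold in all 4 lines and 2 of these by 4-fold, while with quantile normalization 5 were higher by 2-fold. Cacnb2, a calcium channel β subunit, was at 0 RPKM in the fibroblasts and 5.68 (TαT1) to 13.4 (αT3–1) in pituitary cells. Cacna1b, the pore of the N-type channel, was at 0 RPKM in NIH3T3 against 3.44 (LβT2) to 9.95 (TαT1) in the 4 others. Cacna1a differed in direction, with 12.3 RPKM in NIH3T3, 26.1 in αT3–1 and 4.19 to 7.51 in the other 3 lines. Among 18 receptors for hypothalamic and peptide signals, 1 was higher by 2-fold in all 4, the dopamine receptor Drd2, with 15.8 RPKM in αT1–1, 29.05 in TαT1, 29.5 in αT3–1 and 68.8 in LβT2, against 0 in NIH3T3. Without αT3–1, 4 receptors were higher in the other 3 lines. Tacr2, a tachykinin receptor, was lower in all 4, at 0 (TαT1) to 0.285 (LβT2) RPKM in the pituitary lines against 3.36 in NIH3T3. The GnRH receptor gene Gnrhr was at 0 in NIH3T3, αT1–1 and TαT1 and at 206 and 72.3 RPKM in αT3–1 and LβT2. Calcr, the calcitonin receptor, showed the reverse, with 227 and 295 RPKM in αT1–1 and TαT1, 0.139 in LβT2 and 0 in αT3–1 and NIH3T3. Of the 14 genes for transmitter synthesis and vesicular transport, Atp6v0a1, a subunit of the proton pump that acidifies vesicles, alone was higher in all 4, at 13.2 RPKM in the fibroblasts and 37.5 (LβT2) to 145 (TαT1) in pituitary cells.

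Transcription factors of the pituitary were mostly silent in the fibroblasts. Of 18 compared, 14 were at 0 in NIH3T3, against 13.3% of all genes, so that they entered the comparison through a pituitary line and could not be lower. By 2-fold, 6 were higher in all 4 lines and 0 were lower. Pitx1, a homeodomain factor of the anterior pituitary that acts on many hormone genes, had 337 RPKM in LβT2, 100.3 in αT3–1, 259.8 in αT1–1 and 398 in TαT1, with 0 in NIH3T3. Every pituitary line was at 100 RPKM or more, at least 1167-fold above the floor of 3 reads in NIH3T3. Lhx3, a LIM-homeodomain factor needed for most anterior pituitary cells, was at 0.0954 RPKM in NIH3T3 against 24.9 (αT3–1) to 100.1 (αT1–1) in the 4 others, and the NIH3T3 value is 3 reads. Isl1, Foxl2 and Lhx2 were at 0 in NIH3T3 and from 18.5 to 67.6, 17.5 to 86.8 and 11.9 to 57.4 RPKM in the pituitary lines. Other factors of this list were high in some lines only. Nr5a1, the SF-1 gene of gonadotropes, reached 162 RPKM in αT3–1 and 265 in LβT2, with 0.687 in αT1–1 and 0.288 in TαT1. Pou1f1, the factor of thyrotropes, lactotropes and somatotropes, was at 88 RPKM in TαT1, 3.21 in αT1–1 and at most 0.0612 elsewhere. Six2 was placed among mesenchymal factors, yet it was at 18.4 (αT3–1) to 127 (TαT1) RPKM in the pituitary lines against 0.0666 in NIH3T3.

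Of 16 neuroendocrine factors 14 were at 0 in NIH3T3, again against 13.3% of all genes, and the same limit holds for them. Of the 16, 5 were higher by 2-fold in all 4 lines and 0 were lower, and without αT3–1 8 were higher in the other 3. Insm1, a zinc finger repressor of endocrine precursors, had 137 RPKM in αT1–1, 53.8 in TαT1, 50.2 in αT3–1 and 48 in LβT2, against 0 in NIH3T3. Scrt1, Myt1 and Myt1l, repressors known from neurons, were at 0 in NIH3T3 and each was higher by 2-fold in all 4 lines, at 9.996 to 19.1, 7.11 to 24.3 and 1.82 to 7.665 RPKM. Rest, the zinc finger repressor that keeps neuronal genes off in other cells, ran opposite to this list, with 0.389 RPKM in LβT2, 0.272 in αT3–1, 0.116 in αT1–1 and 0.124 in TαT1, with 4.1 in NIH3T3. In the pituitary line with the most Rest, LβT2, the level was 10.5-fold below that of NIH3T3.

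**Figure D3:**
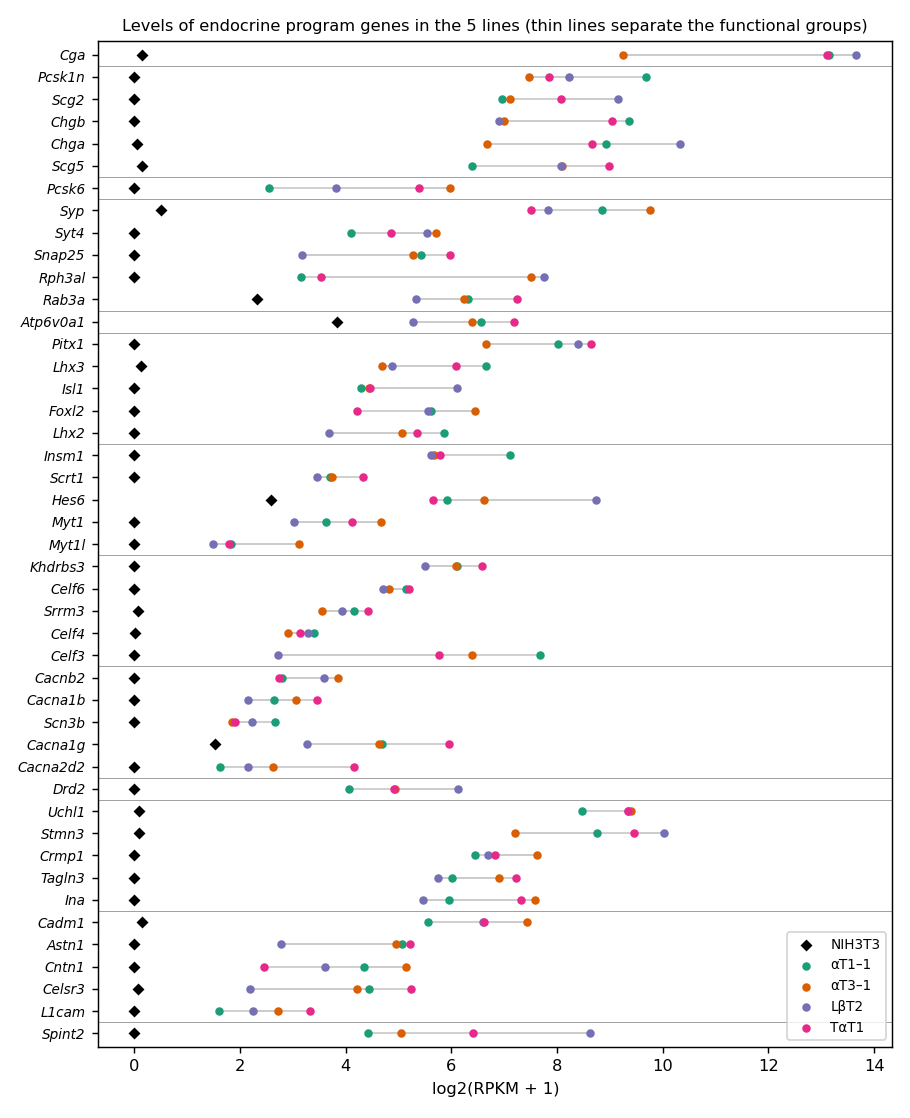
Points give log2(RPKM + 1) in each of the 5 lines for the endocrine program genes named first in their groups, with NIH3T3 as black diamonds and a gray line joining the 4 pituitary lines. The black diamonds sit at or near 0 for most genes, with Atp6v0a1 the highest at 13.2 RPKM. The points of the pituitary lines lie to the right of the diamond for every gene shown, as the rule for showing them requires.

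Promoters are shown here for 3 genes of this program, a hormone subunit, a transcription factor and a granule protein, each at 3 reads or fewer in NIH3T3. These, and the 3 shown later, were not picked by a rule. The shares over all promoters given below therefore do not show that a match in them is unusual. The sequences are those of RefSeq on GRCm38.p6, from 250 bases before to 50 after the annotated start, 5′ to 3′ on the strand of the gene. Capitals mark letters searched for on both strands, which were TATAAA of a TATA box, TAATCC of PITX factors, TGANTCA of AP-1, GGAATG of TEAD factors and RE1. RE1 is the element bound by REST, and its parts were taken as AGCACC, 2 free bases and GGACAG, with up to 1 mismatch. Over all 27025 promoters in the reference table, these occur in 14.2%, 7.16%, 7.93%, 14.6% and 0.352%. None of the searched words overlaps another in the promoters shown. The Cga promoter (chr4:34893529-34893828, plus strand) has 1 CpG, and its capitals mark TATAAA at 30 to 25 bases before the start. The Lhx3 promoter (chr2:26208200-26208499, minus strand) is the first of 2 that the table lists and has 13 CpG. Its capitals mark TATAAA at 176 to 171 bases and the RE1 parts without a mismatch at 40 to 27 bases before the start, a match that 0.0518% of all promoters have. The Chgb promoter (chr2:132781392-132781691, plus strand) has 31 CpG and none of the searched words. The median over all promoters is 7 CpG.
Cga: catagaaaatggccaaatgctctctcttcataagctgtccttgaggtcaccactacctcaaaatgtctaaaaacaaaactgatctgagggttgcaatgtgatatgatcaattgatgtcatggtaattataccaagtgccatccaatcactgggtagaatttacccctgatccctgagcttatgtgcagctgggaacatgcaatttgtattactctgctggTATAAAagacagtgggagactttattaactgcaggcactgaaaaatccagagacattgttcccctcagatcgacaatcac
Lhx3: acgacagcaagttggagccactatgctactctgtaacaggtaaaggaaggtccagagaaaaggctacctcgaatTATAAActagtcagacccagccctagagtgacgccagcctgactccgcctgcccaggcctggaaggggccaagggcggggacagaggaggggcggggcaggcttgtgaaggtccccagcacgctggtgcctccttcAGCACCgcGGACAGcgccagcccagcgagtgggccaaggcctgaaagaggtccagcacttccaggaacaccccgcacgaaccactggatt
Chgb: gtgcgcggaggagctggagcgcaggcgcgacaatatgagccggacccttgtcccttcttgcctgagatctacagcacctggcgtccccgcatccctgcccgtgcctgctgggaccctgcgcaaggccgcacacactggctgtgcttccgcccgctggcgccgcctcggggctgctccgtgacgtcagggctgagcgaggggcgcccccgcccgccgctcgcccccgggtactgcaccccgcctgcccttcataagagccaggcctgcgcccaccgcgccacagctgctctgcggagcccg

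These matches describe letters and not sites. A count of such features over all higher or lower genes would be void, because the reference table matched 471 of the 608 higher genes (77.5%) and 348 of the 498 lower genes (69.9%), under the 80% set for it.

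Genes of the neuronal cytoskeleton had the highest share of higher genes among the endocrine lists. Of 24 genes of the neuronal cytoskeleton and axonal transport, 15 were higher by 2-fold in all 4 lines, 13 of them by 4-fold, and 0 were lower. Of the 24, 17 were under 1 RPKM in NIH3T3, so they entered through a pituitary line and could not be lower by 2-fold. Uchl1, an abundant ubiquitin hydrolase of neurons and endocrine cells, was nearly even across αT3–1, LβT2 and TαT1, with 353 RPKM in αT1–1, 648 in TαT1, 670.2 in αT3–1 and 651 in LβT2, against 0.0612 in NIH3T3. Stmn3, a stathmin that destabilizes microtubules, was at 0.0618 RPKM in the fibroblasts and 147 (αT3–1) to 1042 (LβT2) in pituitary cells. Crmp1, of the collapsin response mediators, was at 0 RPKM in NIH3T3 against 86.4 (αT1–1) to 196 (αT3–1) in the 4 others, at least 1377-fold higher. The neuronal intermediate filaments Nefl, Nefm and Ina were at most 0.0217 RPKM in NIH3T3 and at 34 to 728, 38 to 460 and 42.9 to 189.5 RPKM in the pituitary lines. The microtubule motor Kif1a, which carries dense-core vesicles, was at 38.1 (LβT2) to 109 (TαT1) RPKM in the pituitary lines against 0 in NIH3T3. Tubb3, a tubulin often used to mark neurons, was not among them. It stood at 64.2 RPKM in NIH3T3, 48.5 in αT1–1, 109.9 in LβT2, 211.5 in αT3–1 and 294 in TαT1. Dpysl3, a relative of Crmp1, was at 63.2 RPKM in TαT1, 30.35 in αT1–1, 5.79 in αT3–1, 5.005 in NIH3T3 and 0.0691 in LβT2.

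RNA-binding proteins of neurons were also mostly higher. Of 14 in the table, 8 were higher by 2-fold in all 4 lines and 0 were lower. Of the 14, 12 were under 1 RPKM in NIH3T3, so they entered through a pituitary line and could not be lower by 2-fold. Khdrbs3, a splicing regulator, had 44.3 RPKM in LβT2, 66.9 in αT3–1, 68.1 in αT1–1 and 94.2 in TαT1, with 0 in NIH3T3. Celf6 was at 0 RPKM in the fibroblasts and 25.1 (LβT2) to 35.7 (TαT1) in pituitary cells, with differences of 4.71 to 5.20. Srrm3, a splicing factor for neuronal microexons, was at 0.0536 RPKM in NIH3T3 against 10.7 (αT3–1) to 20.6 (TαT1) in the 4 others. Its paralog Srrm4 was low in all lines, at 0.00723 RPKM in LβT2 and at most 4.49, in αT3–1. Of 19 neural adhesion genes, 7 were higher by 2-fold in all 4, and without LβT2 13 were higher in the other 3. Cadm1, an immunoglobulin-type adhesion molecule, was at 46.3 (αT1–1) to 172 (αT3–1) RPKM in the pituitary lines against 0.112 in NIH3T3, and Astn1, astrotactin of migrating neurons, at 0 RPKM in the fibroblasts and 5.89 (LβT2) to 36.3 (TαT1) in pituitary cells.

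LβT2 parted from the other pituitary lines within the endocrine program. Of the 233 genes, 27 were higher by 2-fold in the other 3 lines and not in LβT2 (4.15% of all genes compared were). The clearest case was the epithelial list, where 1 of 18 genes was higher in all 4 lines and 12 were higher in LβT2 alone, against 7.17% of all genes. The list has 29 genes in the data, and those left out of the 18 stayed under 1 RPKM in every line, LβT2 included. All 18 were under 1 RPKM in NIH3T3, so they entered through a pituitary line. Members at 1 RPKM or more in LβT2 alone entered through that line, so this share follows in part from the minimum. Epcam, an epithelial adhesion molecule, was at 129.9 RPKM in LβT2, at 0 in NIH3T3 and at most 0.962 in the other pituitary lines. Cldn3, a claudin of tight junctions, was at 190 RPKM in LβT2 and at most 0.115 elsewhere. Cdh1, E-cadherin, was not part of this pattern and stood at 0.01215 RPKM in LβT2 and 0.604 in NIH3T3. Neither was the keratin gene Krt8, at 0 RPKM in LβT2 and 0.933 in NIH3T3. The gene higher in all 4 was Spint2, an inhibitor of membrane serine proteases, at 0 RPKM in NIH3T3 against 20.4 (αT1–1) to 394 (LβT2) in the 4 others.

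On the fibroblast side, most collagen genes were lower. Of 18 collagen genes compared, 13 were lower by 2-fold in all 4 pituitary lines, 12 by 4-fold, and 0 were higher. Of the 18, 11 were under 1 RPKM in all 4 pituitary lines. These entered through NIH3T3 and could not be higher. Col1a1 and Col1a2 encode the chains of type I collagen. Col1a1 had 0.021 RPKM in αT1–1, 0.0452 in TαT1, 0.0206 in αT3–1 and 0.0228 in LβT2, against 422.5 in NIH3T3. Col1a2 had 0.0208 RPKM in LβT2, 2.16 in αT3–1, 0.07685 in αT1–1 and 0.09285 in TαT1, with 1081 in NIH3T3. αT3–1 was thus the only pituitary line above 1 RPKM for type I collagen, and only for Col1a2. The type VI chains Col6a1 and Col6a2, at 103 and 79.7 RPKM in NIH3T3, were at most 0.324 in the pituitary lines. A few collagens were higher in single lines. Col15a1 was at 14.1 RPKM in TαT1 and 0 in NIH3T3, and the basement membrane chain Col4a2 was at 3.37 in αT3–1 and 0.437 in NIH3T3.

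Genes for the folding and cross-linking of collagen were lower in part. Of 20, 7 were lower by 2-fold in all 4 lines, or 35%, against 8.63% of all genes compared. This is near the share of the reference genes described at the end, 33.3%. The 2 that were higher, or 10%, were near the 10.5% of all genes compared, and with quantile normalization 1 was higher. Serpinh1, the collagen chaperone HSP47, had 0.0809 RPKM in αT1–1, 0.0217 in TαT1, 0.0791 in αT3–1 and 5.37 in LβT2, against 1070 in NIH3T3. Lox, lysyl oxidase, which cross-links collagen and elastin, was at 0 (LβT2) to 0.0736 (TαT1) RPKM in the pituitary lines against 83.6 in NIH3T3. P4hb, which is also the general disulfide isomerase of the endoplasmic reticulum, was at 512 RPKM in NIH3T3, inside its range of 275 to 753 in the others. Crtap, a partner of prolyl 3-hydroxylase, went against the list, at 0.287 RPKM in the fibroblasts and 9.94 (LβT2) to 24.15 (TαT1) in pituitary cells. Loxl2, a lysyl oxidase relative, was the other higher gene, at 0.01355 RPKM in NIH3T3 against 1.13 (TαT1) to 9.16 (LβT2) in the 4 others.

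Of 35 genes for matrix glycoproteins and proteoglycans, 22 were lower by 2-fold in all 4 lines and 2 were higher. Bgn, the proteoglycan biglycan, was at 1073 RPKM in NIH3T3 (1040 to 1107) and at 0 in all 4 pituitary lines, at least 1749-fold lower. Fn1, fibronectin, was at 0.611 (αT3–1) to 2.8 (αT1–1) RPKM in the pituitary lines against 229.7 in NIH3T3. Sparc, a secreted collagen-binding protein, was at 868 RPKM in the fibroblasts and 0.484 (αT3–1) to 60.5 (TαT1) in pituitary cells. Efemp1, fibulin 3, stood at 200 RPKM in NIH3T3 and at 0 in the other 4. Its relative Fbln1, fibulin 1, was one of the 2 higher genes, at 1.09 RPKM in NIH3T3 against 10.4 (αT3–1) to 60.9 (TαT1) in the 4 others, and the microfibril gene Mfap2 was the other, at 5.21 (αT1–1) to 18.7 (TαT1) RPKM in the pituitary lines against 0 in NIH3T3. Cthrc1, a secreted protein of remodeling matrix, was at 44.8 RPKM in αT1–1 and at 0 in the other 4 lines.

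Among 18 proteases and inhibitors of the matrix, 9 were lower by 2-fold in all 4 lines and 1 was higher. Mmp2, gelatinase A, was at 112 RPKM in the fibroblasts and 0.127 (αT3–1) to 11 (LβT2) in pituitary cells. Its inhibitors Timp1 and Timp2 were both at 204 RPKM in NIH3T3 and reached at most 36.7 (LβT2) and 79.5 (TαT1) in the pituitary lines. Serpine2, protease nexin 1, was higher in all 4, with 438 RPKM in LβT2, 18.7 in αT3–1, 8.67 in αT1–1 and 49.9 in TαT1, with 0.0342 in NIH3T3. LβT2 was the highest line by far, and the NIH3T3 value is 1 read.

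**Figure D4:**
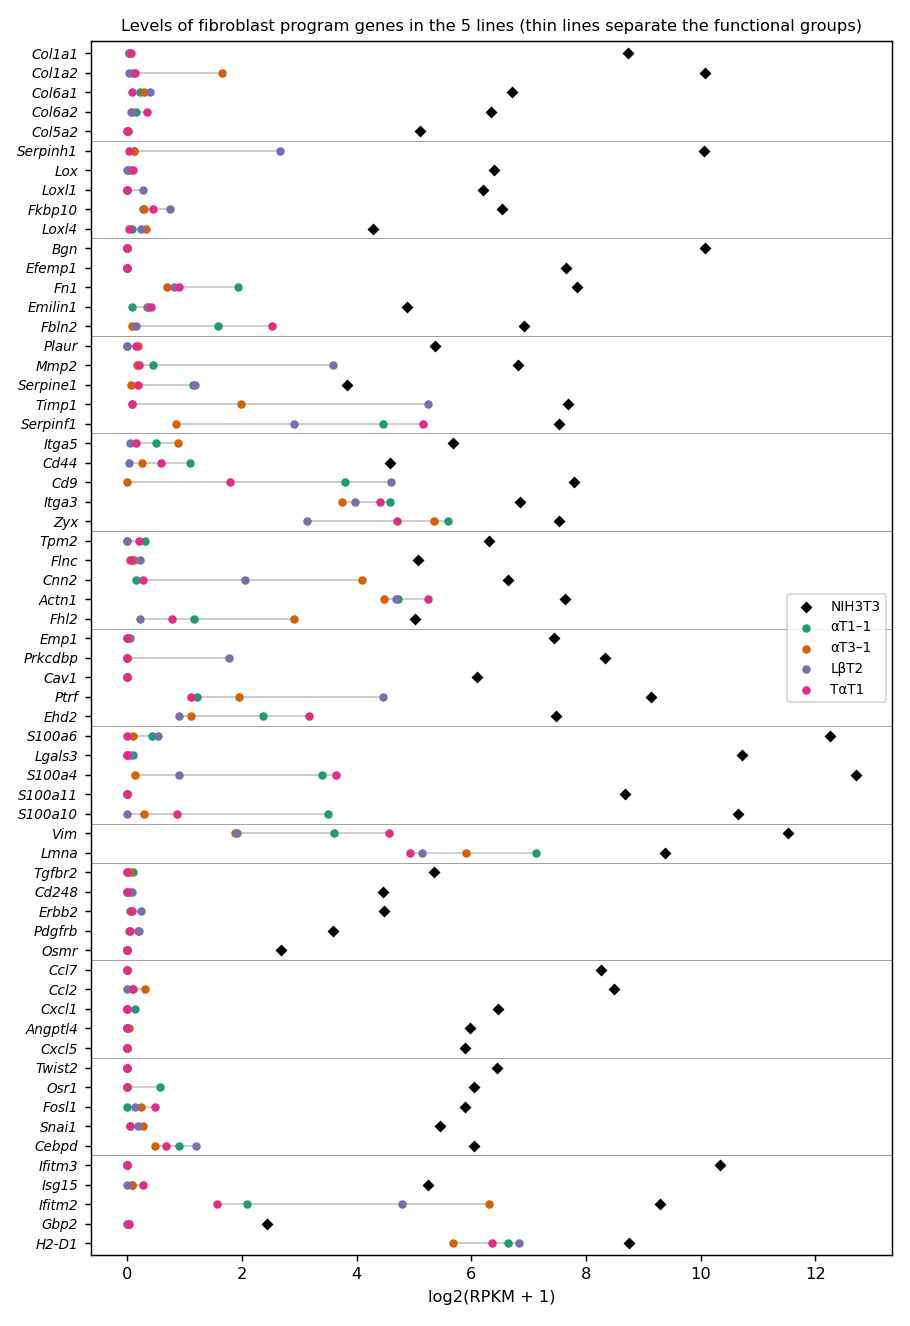
Points give log2(RPKM + 1) in each of the 5 lines for the fibroblast program genes named first in their groups, with NIH3T3 as black diamonds and a gray line joining the 4 pituitary lines. For Bgn, Efemp1, Cav1, S100a11, Osmr, Ccl7, Cxcl5, Twist2 and Ifitm3 the 4 pituitary points lie on 0. Long gray lines, as for Ifitm2, Timp1 and Cd9, mark genes on which the pituitary lines differ.

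Caveolae are small membrane pits rich in cholesterol. The list of caveolae and membrane scaffold genes had the highest share of lower genes of all lists. It also holds genes of other membrane proteins, such as Emp1, Emp2, Emp3, Pmp22 and Ahnak, so its share is not one of caveolae alone. Of 13 genes, 12 were lower by 2-fold in all 4 pituitary lines and 10 by 4-fold. Cav1, the coat protein caveolin 1, was at 67.7 RPKM in NIH3T3 (63.1 to 72.6) and at 0 in all 4 others, at least 349-fold lower. Ptrf, or cavin 1, had 1.34 RPKM in αT1–1, 1.17 in TαT1, 2.84 in αT3–1 and 21.1 in LβT2, against 558 in NIH3T3, and LβT2 had the most of the 4. Prkcdbp, cavin 3, was at 319 RPKM in NIH3T3, 2.4 in LβT2 and 0 in the other 3. Emp1, a tetraspan membrane protein, was at 173.5 RPKM in NIH3T3 against 0 (αT1–1 and TαT1) to 0.0394 (LβT2) in the 4 others.

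The calcium-binding S100 proteins and annexins and the galectins had the highest summed RPKM in NIH3T3 of the 13 fibroblast lists, 22021, against 569 (αT3–1) to 1260 (αT1–1) in the pituitary lines. Of 22 genes, 13 were lower by 2-fold in all 4 lines, 12 by 4-fold, and 1 was higher. S100a4, also known as fibroblast-specific protein, had 0.861 RPKM in LβT2, 0.0971 in αT3–1, 9.52 in αT1–1 and 11.5 in TαT1, with 6688 in NIH3T3. S100a6, calcyclin, had 0.344 RPKM in αT1–1, 0 in TαT1, 0.0672 in αT3–1 and 0.447 in LβT2, against 4891 in NIH3T3. The most that any pituitary line held of S100a6 was 6 reads, in LβT2. Lgals3, galectin 3, was at 0 (αT3–1 and TαT1) to 0.0703 (αT1–1) RPKM in the pituitary lines against 1693 in NIH3T3, and Lgals1, galectin 1, at 3830 RPKM in the fibroblasts and 1.74 (LβT2) to 37.9 (αT3–1) in pituitary cells. Anxa2, an annexin that links membrane and actin, had 0.273 RPKM in LβT2, 68.8 in αT3–1, 94.6 in αT1–1 and 5.29 in TαT1, with 1863 in NIH3T3. αT1–1 and αT3–1 were well above LβT2. Its partner S100a10 was at 1602 RPKM in NIH3T3 against 0 (LβT2) to 10.3 (αT1–1) in the 4 others. Anxa6 was the higher gene, at 262 (αT3–1) to 410 (TαT1) RPKM in the pituitary lines against 71.2 in NIH3T3. Anxa5 went both ways, with 247 RPKM in NIH3T3, 579 in αT1–1 and 84.5 to 161 in the other 3. The intermediate filament Vim, vimentin, had 11.1 RPKM in αT1–1, 22.6 in TαT1, 2.69 in αT3–1 and 2.78 in LβT2, against 2951 in NIH3T3. NIH3T3 was 131-fold above TαT1, the pituitary line with the most. The nuclear lamin gene Lmna was lower too, at 664 RPKM in the fibroblasts and 29.55 (TαT1) to 139.5 (αT1–1) in pituitary cells, while Lmnb1, the other lamin type, was at 57.3 RPKM in NIH3T3, against 64.9 to 112 in the pituitary lines.

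Promoters of 3 of these abundant fibroblast genes follow, with the same letters in capitals. The S100a6 promoter (chr3:90612644-90612943, plus strand) has 6 CpG and none of the searched words. The Vim promoter (chr2:13574061-13574360, plus strand) has 11 CpG, with TATAAA at 32 to 27 bases before the start. The Anxa2 promoter (chr9:69453433-69453732, plus strand) has 13 CpG, with letters of AP-1 at 95 to 89 bases and TATAAA at 17 to 12 bases before the start.
S100a6: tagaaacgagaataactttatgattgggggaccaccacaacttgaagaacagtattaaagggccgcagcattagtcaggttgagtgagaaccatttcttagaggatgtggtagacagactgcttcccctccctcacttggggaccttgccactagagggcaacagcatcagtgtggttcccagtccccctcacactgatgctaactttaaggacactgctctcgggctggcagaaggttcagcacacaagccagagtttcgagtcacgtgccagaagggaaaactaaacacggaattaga
Vim: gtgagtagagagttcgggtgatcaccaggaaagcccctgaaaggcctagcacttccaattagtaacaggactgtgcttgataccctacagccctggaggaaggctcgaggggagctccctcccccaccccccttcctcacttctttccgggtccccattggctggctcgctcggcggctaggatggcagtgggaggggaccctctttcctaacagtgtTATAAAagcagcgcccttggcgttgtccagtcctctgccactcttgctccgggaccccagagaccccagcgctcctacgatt
Anxa2: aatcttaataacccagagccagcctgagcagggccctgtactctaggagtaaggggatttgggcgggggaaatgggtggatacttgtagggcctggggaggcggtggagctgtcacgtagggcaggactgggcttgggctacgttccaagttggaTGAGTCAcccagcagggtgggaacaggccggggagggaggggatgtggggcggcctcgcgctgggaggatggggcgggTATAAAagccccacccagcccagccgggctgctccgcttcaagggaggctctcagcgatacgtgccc

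Adhesion and actin genes had smaller shares of lower members, 28% and 30.3%, against 8.63% of all genes compared. These shares did not exceed that of the reference genes described at the end, 33.3%. Of 25 integrin and focal adhesion genes, 7 were lower by 2-fold in all 4 lines and 1 was higher, and without LβT2 3 were higher in the other 3. Itga5, the α chain of the fibronectin receptor, was at 50.4 RPKM in NIH3T3 against 0.0368 (LβT2) to 0.853 (αT3–1) in the 4 others. Its partner Itgb1, the common β1 chain, was not lower. It stood at 35.9 RPKM in NIH3T3, against 59.8 to 187 in the pituitary lines. Zyx, zyxin of focal adhesions, was at 7.76 (LβT2) to 47.05 (αT1–1) RPKM in the pituitary lines against 183 in NIH3T3, whereas Tln1, talin, was at 63.7 and 30.5 to 62.8. Of 33 actin and contraction genes, 10 were lower in all 4 and 0 higher. Tpm2, a tropomyosin of muscle and stress fibers, was at 78.1 RPKM in the fibroblasts and 0 (αT3–1 and LβT2) to 0.2355 (αT1–1) in pituitary cells. Flnc, filamin C, was at 32.6 RPKM in NIH3T3 against 0.02895 (TαT1) to 0.1695 (LβT2) in the 4 others, and the widely expressed filamin A gene Flna at 62.85 (αT1–1) to 111 (αT3–1) RPKM in the pituitary lines against 381 in NIH3T3. Actb, β-actin, was at 1584 RPKM in NIH3T3 and at 579 to 875 in the others. Myh10, nonmuscle myosin IIB, was higher in 3 lines, with 6.5 RPKM in NIH3T3, 49.6 to 62.6 in 3 pituitary lines and 10.9 in LβT2.

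Signals sent and received by fibroblasts were lower in many genes. Of 31 secreted factors, 15 were lower by 2-fold in all 4 lines and 0 were higher. Of the 31, 12 were under 1 RPKM in all 4 pituitary lines, so they entered through NIH3T3 and could not be higher. The monocyte chemokines Ccl2 and Ccl7 were at 358 and 305 RPKM in NIH3T3. Ccl7 was at 0 in all 4 pituitary lines, at least 1510-fold lower, and Ccl2 reached 0.24 RPKM, in αT3–1. Csf1, the macrophage growth factor, was at 113.5 RPKM in the fibroblasts and 0.2405 (αT3–1) to 8.28 (αT1–1) in pituitary cells. Ctgf, a matricellular target of YAP and TEAD, was at 58.3 RPKM in NIH3T3 against 0 (αT1–1, αT3–1 and LβT2) to 0.0442 (TαT1) in the 4 others. Of 32 receptors, 13 were lower in all 4 and 1 higher, and without LβT2 or without αT3–1 2 were higher in the other 3. Tgfbr2, the type II receptor for TGFβ, was at 0 (LβT2 and TαT1) to 0.0722 (αT1–1) RPKM in the pituitary lines against 39.8 in NIH3T3, and Pdgfrb, the PDGF receptor of mesenchymal cells, at 11 RPKM in the fibroblasts and 0.0274 (αT1–1) to 0.158 (LβT2) in pituitary cells. The type I receptor Tgfbr1 was instead at 0.867 RPKM in NIH3T3, against 1.09 to 14.7 in the pituitary lines. Ngfr, the p75 neurotrophin receptor, was the higher gene, at 0.0413 RPKM in NIH3T3 against 1.78 (TαT1) to 18.2 (αT3–1) in the 4 others. Egfr was at 43.3 and 9.16 RPKM in αT1–1 and TαT1 and at 0.441 to 1.57 in the other 3 lines.

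Of 49 mesenchymal and growth-response factors, 22 were lower by 2-fold in all 4 lines, 15 by 4-fold, and 4 were higher. Twist2, a basic helix-loop-helix factor of mesenchyme, was at 86.5 RPKM in NIH3T3 and 0 in all 4 pituitary lines. Snai1, a repressor of epithelial genes, was at 0.03115 (αT1–1) to 0.213 (αT3–1) RPKM in the pituitary lines against 42.6 in NIH3T3. Yap1, a coactivator under control of the Hippo pathway, had 0 RPKM in LβT2, 0.0696 in αT3–1, 0.119 in αT1–1 and 0.191 in TαT1, with 26.6 in NIH3T3. The related Wwtr1 (TAZ) was at 29.7 RPKM in the fibroblasts and 0 (LβT2) to 1.04 (αT1–1) in pituitary cells. Of the DNA-binding partners, Tead2 was at 116 RPKM in NIH3T3 against 0.276 (TαT1) to 3.95 (αT3–1) in the 4 others and Tead4 at 0 (TαT1) to 0.0321 (αT1–1) RPKM in the pituitary lines against 28.4 in NIH3T3. Tead1 went both ways, with 3.37 RPKM in NIH3T3, 13.2 to 17.9 in 3 pituitary lines and 1.23 in LβT2. Fosl1, an AP-1 subunit induced by growth signals, was at 57.9 RPKM in the fibroblasts and 0 (αT1–1) to 0.394 (TαT1) in pituitary cells, while Jund was at 94 and 72.8 to 155 RPKM. The 4 genes higher in all 4 lines were Six2, Tcf4, Nr2f1 and Fos, of which Fos was at 0.57 RPKM in NIH3T3 against 2.23 (LβT2) to 10.3 (TαT1) in the 4 others. With quantile normalization 1 gene of the list was higher in all 4. Id2, an inhibitor of helix-loop-helix factors, was at 130.5 and 226.5 RPKM in αT1–1 and TαT1 and at 2.92 to 6.7 in the other 3 lines.

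Of 22 antigen presentation and interferon response genes, 10 were lower by 2-fold in all 4 lines and 2 were higher. Ifitm3, an interferon-induced membrane protein that restricts viral entry, was at 1299 RPKM in NIH3T3 (1259 to 1340) and at 0 in all 4 others. B2m, the light chain of MHC class I, was at 30 (αT3–1) to 171 (TαT1) RPKM in the pituitary lines against 634 in NIH3T3. The heavy chain gene H2-D1 was lower too, at 432 RPKM in the fibroblasts and 50 (αT3–1) to 113 (LβT2) in pituitary cells, but H2-K1 was higher, at 1.58 RPKM in NIH3T3 against 32.9 (αT3–1) to 82.3 (LβT2) in the 4 others. H2-D1 and H2-K1 are near-identical in part and differ between mouse strains, and the lines come from different strains, so the values of both are uncertain. Psmb8, a subunit of the immunoproteasome, was at 376 RPKM in LβT2 and at most 1.605 in the other 4 lines, NIH3T3 included.

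Some of the widest differences were in genes outside both programs. Eef1a2, the translation elongation factor of neurons and muscle, had 859 RPKM in αT1–1, 798.5 in TαT1, 532 in αT3–1 and 182 in LβT2, against 0.103 in NIH3T3. Its widely expressed paralog Eef1a1 ran the other way, at 322 (LβT2) to 798 (TαT1) RPKM in the pituitary lines against 1809 in NIH3T3. Aplp1, a relative of the amyloid precursor protein found in neurons, was at 0 RPKM in the fibroblasts and 165 (αT3–1) to 592 (LβT2) in pituitary cells. Atp9a, a phospholipid flippase of endosomes, was nearly even in the pituitary lines, at 0 RPKM in NIH3T3 against 101.5 (TαT1) to 135.5 (LβT2) in the 4 others. Ucp2, a carrier of the inner mitochondrial membrane, stood at 153 (αT3–1) to 394 (LβT2) RPKM in the pituitary lines against 0.5605 in NIH3T3. On the other side, Slpi, a secreted inhibitor of leukocyte proteases, had 0.1225 RPKM in LβT2, 0.0552 in αT3–1, 0.0565 in αT1–1 and 0.303 in TαT1, with 1068 in NIH3T3. The water channel Aqp1 was at 486 RPKM in the fibroblasts and 0.0537 (αT1–1) to 0.35 (αT3–1) in pituitary cells. Dlk1, a Notch-like membrane protein of preadipocytes, was at 239 RPKM in NIH3T3 against 0 (αT1–1, αT3–1 and LβT2) to 0.05515 (TαT1) in the 4 others, and Igfbp6, which binds insulin-like growth factors, at 0 (αT1–1 and TαT1) to 0.1125 (αT3–1) RPKM in the pituitary lines against 273 in NIH3T3. For each of these 4 genes the levels in the pituitary lines stayed under 1 RPKM.

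The pituitary lines were on opposite sides of NIH3T3 for a few genes only. By 4-fold each way these were 23 genes, 0.172% of those compared, and LβT2 was the highest line for 11 of them and the lowest for 10. Psmb9, the partner of Psmb8, had 0.858 RPKM in αT1–1, 3.09 in TαT1, 2.1 in αT3–1 and 284 in LβT2, against 33.7 in NIH3T3. Cela1, a serine protease of the elastase family, was at 1507 RPKM in LβT2, 7.87 in NIH3T3 and 0.437 to 4.6 in the other 3. Gadd45g, a stress-induced gene known to be silent in many tumors, had 0.249 RPKM in LβT2, 100.2 in αT3–1, 194.5 in αT1–1 and 72.5 in TαT1, with 18.2 in NIH3T3. Basp1, a membrane protein of growth cones, was at 102 to 233 RPKM in 3 pituitary lines, 44.4 in NIH3T3 and 1.59 in LβT2. Mgp, a matrix protein that inhibits calcification, was at 95.9 RPKM in αT1–1, 6.56 in NIH3T3 and 0 to 1.15 in the rest.

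**Figure D5:**
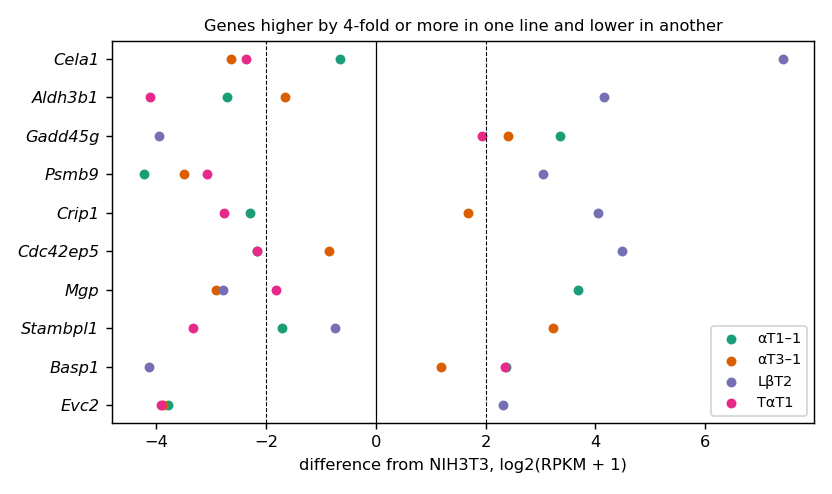
The 4 differences from NIH3T3 are plotted for the 10 genes with the widest spread among those higher by 4-fold or more in one pituitary line and lower in another, with dashed lines at 4-fold. LβT2 lies farthest right for Cela1, Aldh3b1, Psmb9, Crip1, Cdc42ep5 and Evc2, and farthest left for Gadd45g and Basp1.

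Some genes were higher by a like amount in all 4 lines. Fam189a2 was at 0 in NIH3T3 and at 42.8 to 52.2 RPKM in the pituitary lines. Cadm4, another adhesion molecule of the Cadm family, was at 0.13 RPKM in the fibroblasts and 59.3 (αT1–1) to 76.7 (αT3–1) in pituitary cells, with differences of 5.74 to 6.10. Xkr7 was at 0 and at 14.8 to 16.6. Nedd9, a scaffold of focal adhesions, was at 4.89 RPKM in NIH3T3 against 39.5 (LβT2) to 52.45 (αT1–1) in the 4 others. Among the lower genes, the evenest were those at 0 in all 4 lines. One was Syt8, at 56.7 RPKM in NIH3T3, a member of the synaptotagmin family known for its part in exocytosis. It was not in the exocytosis list, whose count of lower genes leaves it out.

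The threshold sets the edge of these groups. Map1lc3a, at 208 (αT3–1) to 273 (LβT2) RPKM in the pituitary lines against 51.1 in NIH3T3, was the last gene inside the higher group, and Phyhip, at 0.0252 RPKM in the fibroblasts and 3.1 (αT1–1) to 35.2 (LβT2) in pituitary cells, fell just outside. In the lower group Ugt1a6b, at 3.01 RPKM in NIH3T3 and 0 in the 4 others, was just inside and Tnfrsf23 just outside, with a difference of −1.99 in αT1–1. A gene at 0 in all pituitary lines needs only 3 RPKM in NIH3T3 to enter. B3gnt4, with 1.0001 RPKM in αT3–1, was the last gene compared, and 2810433D01Rik, at 0.9998 RPKM in NIH3T3 and 0 elsewhere, was the first left out.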

How the data were processed

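Poly(A) RNA of 5 mouse cell lines, untreated and subconfluent, was sequenced from TruSeq libraries. The study describes 2 libraries per line, but the table holds 1 column per line, taken here as the deposited value of that line without n or SD. According to the deposited table the authors gave RPKM per gene symbol, made with CASAVA. For its version, the annotation, the genome build and the handling of reads with several matches, nothing is stated in the sources. Of 21476 entries, 25 that spreadsheet software had turned into dates (0.0991% to 0.242% of the summed RPKM) were left out and 9 repeated symbols were resolved, leaving 21437 genes.

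Differences are of log2(RPKM + 1), with a pseudocount of 1 RPKM, which understates those of low genes. Counts use a size of 4-fold over the whole table and 2-fold in the lists. RPKM values were whole multiples of a step that depends on the depth of the column and the length of the gene. The column depths followed from these steps, all within 0.00569 of a whole number, and the reads of 15388 of the 17489 genes above 0 (88%) were recovered, with 36-base reads. This gave exact Poisson intervals and a floor of 3 reads for a count of 0. The recovery was tested on simulated data. Recovered reads were not used for a count test, as there is 1 column per line.

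The 35 gene lists, the markers and the genes compared were chosen with earlier results of these data known. Genes were named by rule. These are the 15 highest and 15 lowest by smallest difference (at 10 RPKM), of each list up to 5 genes past 2-fold in its direction and up to 3 against it, the 10 widest of the opposite genes, the 10 evenest in each direction and those at the thresholds. Other list members that the text explains were chosen after their values were seen. Promoters were taken from a RefSeq table. Alternatives were other pseudocounts (0.1 and 5 RPKM), minimum levels, sizes and scalings, genes with recovered reads alone, and leaving out each pituitary line. All columns of the table were mapped to a line, and 0 were left unused. Python 3.11.15 was used with NumPy 2.4.6, pandas 2.3.3, SciPy 1.17.1 and Matplotlib 3.10.9.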

Additional observations from a re-analysis of the deposited data

Results flagged for a closer look

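By 4-fold or more, 23 genes were higher than NIH3T3 in one pituitary line and lower in another, so that the lines lie on opposite sides of the fibroblasts. With 1 column per line this difference between lines was not tested. LβT2 was the highest line for 11 of the 23 and the lowest for 10, and without LβT2 the count was 3.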

How the results depend on the processing

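The counts of genes higher in all 4 lines (608), lower in all 4 (498) and on opposite sides of NIH3T3 (23) moved with the pseudocount, the size asked for and, for the last, with LβT2. With a pseudocount of 0.1 RPKM they were 1306 higher and 123 opposite, and the 690 lower stayed within 1.5 times. With 5 RPKM they were 186 higher, 295 lower and 6 opposite. At a size of 2-fold they were 1412, 1156 and 271, and at a log2 difference of 3 they were 294, 279 and 4. Median-of-ratios scaling gave 578, 557 and 24, quantile normalization 482, 595 and 34, and genes with recovered reads alone 533, 434 and 19. Leaving out 1 pituitary line gave 679 to 838 higher, 527 to 629 lower and 3 to 21 opposite, the last being 3 without LβT2. The largest difference of Eef2 went from −1.91 to 1.00 with quantile normalization. Of genes that were higher in some lines and lower in others, the largest difference went from 1.22 to −0.62 for Anxa5 and from 1.21 to −0.30 for Pam without αT1–1 and from 1.03 to −0.64 for Cacna1a without αT3–1, and the smallest went from −2.49 to 0.18 for Dpysl3 without LβT2. The cause was not tested. Genes under about 1 RPKM in both cell types rest on few reads. No paired analysis was possible because each line has 1 column.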

Other observations

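Genes of the RB and p53 pathways, the targets of the T antigen that the pituitary lines carry, were compared in the same way. Of 22, 4 were higher by 2-fold or more in all 4 pituitary lines (18.2%) and 5 were lower (22.7%). Over all genes compared the shares were 10.5% and 8.63%, and of the reference genes described below 33.3% were lower. With quantile normalization 2 were higher. Cdkn2a, which encodes the inhibitors INK4A and ARF, had 265 RPKM in αT1–1, 229 in TαT1, 131 in αT3–1 and 225.5 in LβT2, against 0.927 in NIH3T3, 142-fold higher in the lowest pituitary line than in NIH3T3. RNA levels do not show whether the gene is intact in NIH3T3, and this was not tested. Cdkn1b, the inhibitor p27, was at 13.6 RPKM in NIH3T3 against 86.5 (αT3–1) to 133 (LβT2) in the 4 others. Ccnd1, cyclin D1, had 0.833 RPKM in LβT2, 0.968 in αT3–1, 0.495 in αT1–1 and 0.713 in TαT1, with 203 in NIH3T3. Its relative Ccnd2 was at 0 (αT1–1 and LβT2) to 0.0092 (TαT1) RPKM in the pituitary lines against 27.7 in NIH3T3, and their kinase partner Cdk6 at 25.1 RPKM in NIH3T3 and 0 in the 4 others. Other members of these families stayed expressed. Ccnd3 was at 9.05 (αT3–1) to 42.1 (αT1–1) RPKM in the pituitary lines against 44.5 in NIH3T3. Cdk4 was at 231.9 (LβT2) to 343.4 (αT1–1) RPKM against 699.7 in NIH3T3. Trp53 itself was at 211 RPKM in the fibroblasts and 34.2 (αT3–1) to 58.5 (αT1–1) in pituitary cells. Of 20 p53 target genes, 6 were lower in all 4 lines (30%) and 1 was higher (5%), and without LβT2 11 were lower in the other 3. The share lower in all 4 did not exceed the 33.3% of the reference genes. Phlda3, a p53 target that inhibits AKT, was at 399 RPKM in NIH3T3 against 4.38 (TαT1) to 20.4 (αT3–1) in the 4 others, and Plk2, a kinase of the polo family, at 7.13 (αT1–1) to 9.66 (TαT1) RPKM in the pituitary lines against 104 in NIH3T3. Cdkn1a, the inhibitor p21, was at 134.8 RPKM in NIH3T3 and 157 in LβT2, and at 40.8 to 50.2 in the other 3 lines. Which part strain, T antigen or cell type has in these values cannot be told apart.

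Widely expressed genes also differed. Of 14 ribosomal protein genes, 9 were lower by 2-fold or more in all 4 pituitary lines, or 64.3%, against 8.63% of all genes compared. Of the fibroblast lists, only the collagens (72.2%) and the caveolae and membrane scaffold genes (92.3%) had a higher share. A further 2 were higher, and 5 were lower with quantile normalization. Rplp0 was at 3307 RPKM in the fibroblasts and 158 (αT1–1) to 325 (LβT2) in pituitary cells, whereas Rps2 was at 3.165 RPKM in NIH3T3 against 26.6 (αT3–1) to 109 (LβT2) in the 4 others and Rpl3 at 6.51 (TαT1) to 12.9 (LβT2) RPKM in the pituitary lines against 1.19 in NIH3T3. Such genes have many near-identical pseudogene copies, and how reads with several matches were counted is not given in the sources used here, so these levels are uncertain. The same holds for Gapdh, which was listed at 2.165 RPKM in NIH3T3, 0.609 in LβT2 and 12.3 to 40.05 in the other 3 lines. Of 15 reference genes, 5 were lower in all 4 lines (33.3%) and 0 higher, and 2 were lower with quantile normalization. Eef2, a translation elongation factor, was at 5377 RPKM in the fibroblasts and 676 (LβT2) to 1430 (αT3–1) in pituitary cells, but with quantile normalization its largest difference was 1.00 in place of −1.91. Sdha, a subunit of succinate dehydrogenase, differed by 0.03 to 0.30 on the log2 scale, at 119 RPKM in NIH3T3 against 121 (TαT1) to 147 (LβT2) in the 4 others.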
